A study of Mus musculus with 20 samples.

Results

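Deletion of Hyal2 without added TGFB was examined in cultured fibroblasts of the mouse heart, the cells that lay down its matrix, by RNA-seq gene counts. The comparison uses 8 of the 20 libraries of the series: the 4 of group Cre and the 4 of group GFP, taken from the labels. Both groups came from Hyal2fl/fl cells at passage 2, whose Hyal2 gene carries loxP sites, although the genotype label of all libraries reads wild type C57BL/6J. The cells were serum starved for 24 h. They then received an adenovirus for 5 h, carrying GFP in the control group and Cre recombinase in the other, where exon 2 of Hyal2 is to be removed, and fresh medium for 48 h. From the wording of the labels it is unclear whether cultures without TGFB received bFGF at 20 ng/mL in its place. Libraries with the same replicate number share an isolate code in their library names, so each number was treated as 1 cell isolate and Cre was compared with GFP within it. Isolates 1 and 2 are labelled female and isolates 3 and 4 male, and the labels do not say how many animals each came from. Cells without loxP sites that received the Cre virus were not analysed here, so loss of Hyal2 and exposure to Cre cannot be told apart in these libraries.

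Hyal2 encodes a hyaluronidase held at the cell surface, where it starts the breakdown of long chains of hyaluronan, a polysaccharide of the extracellular matrix. Much of the text below concerns the interferon system. Cells sense foreign or misplaced RNA and DNA through dedicated receptors and secrete type I interferons, which act back on surface receptors and, through the kinases Jak1 and Tyk2, on transcription factors that include Stat2 and Irf9. Their complex binds a short promoter motif, the interferon-stimulated response element, and switches on antiviral effectors, antigen presentation and the feedback inhibitors that end the response.

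Library totals ran from 41.4 to 104.8 M counts in the 8 libraries. The largest total was that of Cre in isolate 1, whose GFP partner had 43.4 M. Levels are given as CPM, which are counts scaled to a common library size with TMM factors, and differences as log2 fold changes of Cre against GFP. All 12 fibroblast markers were tested, with a summed level of 55900 to 77020 CPM in GFP and 55140 to 77540 in Cre, and a median log2 fold change of 0.02. Cardiomyocyte markers were near absent, with Myh6 and Pln at 0 counts in all 8 libraries. None of the markers of leukocytes, endothelium, mesothelium, cardiomyocytes, pericytes, Schwann cells or adipocytes was called. The summed level of 15 tested leukocyte markers was 266.0 to 637.6 CPM in GFP and 237.9 to 623.2 in Cre and Cd3e was at 2 counts or fewer over all 8 libraries.

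Hyal2 (ENSMUSG00000010047) checked the labels. It stood at 45.7, 44.2, 41.6 and 37.1 CPM in the GFP libraries of isolates 1 to 4, and at 12.6, 8.58, 13.8 and 7.82 CPM in their Cre partners. Every Cre library lay below every GFP library. The log2 fold change was -2.02 (SE 0.12, edgeR adjusted p = 0.000111). The 4 paired differences were -1.86, -2.36, -1.59 and -2.24. Without isolate 4 the adjusted p was 0.0506, at a log2 fold change of -1.95. Reads of every exon enter the count, the undeleted ones too, so the deletion itself was not measured.

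The other genes of hyaluronan synthesis and turnover were not called in these 8 libraries. Of 15 tested members 0 were called higher and 1, Hyal2, was called lower, while 0.505% of all 15046 genes tested were called lower. The synthase Has2, which extrudes the growing chain through the plasma membrane, stood at 39.4, 63.8, 29.9 and 34 CPM in GFP and at 35.6, 55.7, 31.1 and 34.2 CPM in Cre. These ranges overlapped, and the log2 fold change was -0.07 (SE 0.05, edgeR adjusted p = 0.475). The synthases Has1 (0.02, adjusted p = 0.958) and Has3 (-0.82, adjusted p = 0.199) were low, at means of 1.12 and 0.311 CPM in GFP. Has3 lay below its partner in all 4 pairs without passing the test.

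Substrate supply for the chain is the work of Ugp2 and Ugdh, which make UDP-glucose and UDP-glucuronate, of Uap1, which makes UDP-N-acetylglucosamine, and of the transporter Slc35d1. Their log2 fold changes were -0.17, -0.05, -0.06 and 0.09, with adjusted p of 0.273 or more. On the degrading side the lysosomal hyaluronidase Hyal1, a chromosomal neighbour of Hyal2, stood at 9.61, 7.93, 11 and 10.2 CPM in GFP and at 10.7, 8.28, 12.8 and 12.4 CPM in Cre. Its log2 fold change was 0.18 (SE 0.07, adjusted p = 0.203), and it lay above its partner in 4 of 4 pairs. Hyal3 was at 0.295 CPM in GFP and 0.297 CPM in Cre on average. Cemip, needed for hyaluronan breakdown by skin fibroblasts, ranged from 228 to 480 CPM in GFP and from 230 to 502 CPM in Cre (log2 fold change 0.09, adjusted p = 0.431). Its relative Cemip2 gave -0.12, and the lysosomal exoglycosidases Hexa and Gusb gave 0.07 and 0.05, neither of them called. Among 14 tested hyaluronan receptors and binding proteins 0 were called higher and 1 lower, Hmmr, which is also a mitotic spindle protein and is described with the cell cycle genes.

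Between Cre and GFP, edgeR with the isolate as a block called 284 of 15046 genes (1.89%) at an adjusted p under 0.05, of which 208 were higher in Cre (1.38%) and 76 lower (0.505%). The change was at least 2-fold for 39 of the higher and 5 of the lower genes. All but 1 had the same sign in 4 of 4 pairs, the exception being the Y-linked gene Uty (-0.69), which has values in the 2 male pairs only, whereas the libraries of the groups did not overlap for 81 of the 208 and 19 of the 76. Over all genes tested the libraries did not overlap for 307 in the higher direction (2.04%) and 260 in the lower (1.73%). Isolates differed in their starting levels, and the same fit without the block called 2 genes (0.0133%), Hyal2 among them (adjusted p = 0.0177). Leaving out the pair of isolate 1, 2, 3 or 4 gave 161, 201, 136 or 750 calls, so the number of calls moved by over 1.5 times without isolate 1, 3 or 4. Without isolate 3, 123 of the 208 and 10 of the 76 kept their call, and without isolate 1, 147 and 9 did.

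Genes of the interferon system made up 101 of the 208 called higher. The 7 lists that describe it held 152 tested genes, of which 101 were called higher and 1 lower. Over all genes tested, 1.38% were called higher and 0.505% lower. The lists were chosen with earlier results of these data known, so these counts are a description and not independent support. The median log2 fold change of the 152 genes was 0.59, against 0.00 over all genes tested. In 4 of 4 pairs 125 of the 152 lay above 0 (16.1% of all genes did), and their mean paired difference was 0.45, 0.54, 0.72 and 0.66 in isolates 1 to 4. Without the block 0 of the 152 were called, and their median was 0.61. Leaving out 1 isolate left between 84 and 102 genes of the lists called higher.

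**Figure D1:**
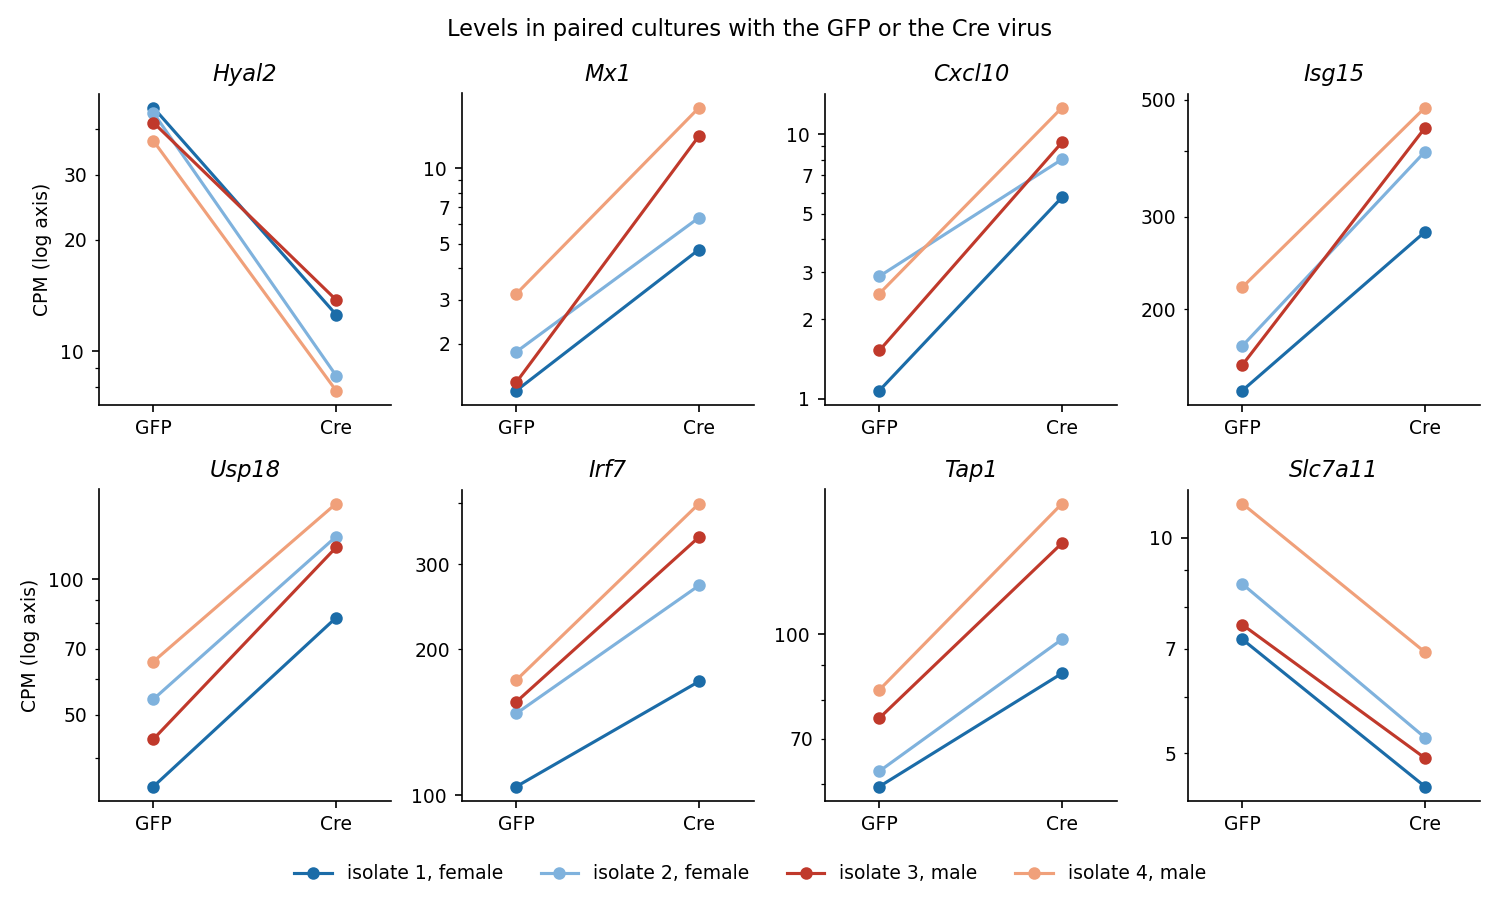
Level of 8 genes in each library, in CPM on a log axis, with the GFP virus on the left and the Cre virus on the right, and 1 line per isolate. Hyal2 and Slc7a11 fell in all 4 isolates and the other 6 genes rose in all 4, while isolates 1 and 4 kept different starting levels, as for Usp18 at 34.6 and 65.6 CPM in GFP.

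Sensors of nucleic acids stand at the start of the pathway. Of 18 tested sensors and adaptors 11 were called higher and 0 lower, with a median log2 fold change of 0.50. Dhx58, a regulator of the RNA sensors, stood at 23.8, 30.7, 36.6 and 46.0 CPM in GFP and at 42.8, 58.0, 79.3 and 96.4 CPM in Cre. It rose within every isolate, although the Cre library of isolate 1 lay below the GFP library of isolate 4 (log2 fold change 0.99, SE 0.06, edgeR adjusted p = 7.32e-06). Zbp1, a sensor of left-handed nucleic acid, stood at 93.6, 124, 88.2 and 117 CPM in GFP and at 139, 211, 168 and 224 CPM in Cre, with no overlap (0.80, adjusted p = 4.93e-05). The RNA sensors Ifih1 (0.67) and Ddx58 (0.50), the endosomal receptor Tlr3 (0.51), the RNA-activated kinase Eif2ak2 (0.45), the RNA-editing enzyme Adar (0.57) and the nucleotide hydrolase Samhd1 (0.61) were called higher as well. So were Ifi203, Ifi204 and Ifi207 of the family that binds DNA. The cytosolic DNA sensor Cgas (0.25, adjusted p = 0.283) and the adaptors Tmem173 (0.08) and Mavs (0.01) were not called.

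Interferon genes themselves were close to the limit of counting. Ifnb1, which encodes interferon beta, had 0, 5, 0 and 3 counts in the GFP libraries and 11, 14, 1 and 4 counts in their Cre partners, too few to be tested. Its raw Cre count was higher in 4 of 4 isolates, by 1 count each in isolates 3 and 4, and the Cre library of isolate 1 was the deepest. In isolate 4 the library totals were 56.3 M counts in Cre and 41.9 M in GFP. Relative to these totals the Cre count of isolate 4 was not higher. Ifna1, Ifna2, Ifna4, Ifna5, Ifnl2, Ifnl3 and Ifng had at most 5 counts in any of the 8 libraries. The 6 receptor genes tested gave 0 calls and a median log2 fold change of 0.02. Among them Ifnar1 and Ifnar2, the 2 chains of the type I interferon receptor, gave -0.04 and 0.03.

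Of 19 signal transducers 9 were called higher and 0 lower. Stat2 and Irf9, which act in 1 complex, rose by 0.71 and 0.30, and Irf7, the factor that amplifies interferon production, by 0.98. Irf7 stood at 104, 148, 156 and 173 CPM in GFP and at 172, 271, 341 and 400 CPM in Cre. The groups overlapped, since the GFP library of isolate 4 lay just above the Cre library of isolate 1, but the Cre library was the higher in 4 of 4 pairs (SE 0.08, edgeR adjusted p = 9.27e-05). Nlrc5, the activator of MHC class I genes, rose by 1.16, and Irf1, Nmi, Ifi35 and Batf2 by 0.34, 0.52, 0.75 and 1.06. The kinases Jak1 (0.02), Jak2 (-0.03), Tyk2 (0.11) and Tbk1 (-0.01) and the factors Stat3 (0.08) and Irf3 (0.08) were not called.

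Feedback inhibitors and the ISG15 conjugation system gave 5 of 10 called higher and 0 lower. Usp18, a protease that removes Isg15 from proteins and blocks the interferon receptor, stood at 34.6, 54.1, 44.1 and 65.6 CPM in GFP and at 82.1, 124, 118 and 147 CPM in Cre. All Cre libraries lay above all GFP libraries (1.26, SE 0.05, edgeR adjusted p = 1.16e-06). Isg15, a ubiquitin-like modifier, stood at 140, 170, 157 and 220 CPM in GFP and at 281, 398, 442 and 483 CPM in Cre, again with no overlap (1.21, SE 0.07, adjusted p = 1.96e-05). The enzymes that attach it rose too: Uba7 by 0.73, Ube2l6 by 0.57 and Herc6 by 0.75. Socs1 (0.38, adjusted p = 0.0857) and Socs3 (0.05, adjusted p = 0.622), which inhibit Jak kinases, were not called.

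Antiviral effectors were the longest list, with 47 of 58 called higher, 1 called lower and a median log2 fold change of 0.67. Mx1, of a family of antiviral GTPases, had the largest change of the genes named by rule. It stood at 1.3, 1.86, 1.41 and 3.16 CPM in GFP and at 4.75, 6.36, 13.5 and 17.5 CPM in Cre (2.33, SE 0.22, edgeR adjusted p = 0.00127). The male isolates 3 and 4 held the 2 highest Cre values, and without isolate 4 the adjusted p was 0.0897 at 2.28. Ifit3, whose protein takes part in the recognition of viral RNA, stood at 85.1, 113, 153 and 234 CPM in GFP and at 216, 343, 502 and 616 CPM in Cre (1.51, SE 0.06, adjusted p = 1.16e-06). Only the GFP library of isolate 4 reached into the Cre range. Ifit3 and Ifit3b (1.46) are near-identical copies, so how their reads were split is uncertain.

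The other large changes among effectors were those of Rsad2 (1.76), an enzyme that makes a chain-terminating nucleotide, its neighbour Cmpk2 (1.65), Oas3 (1.67), which makes the messenger that activates RNase L, and Ifit1bl1 (1.31). Rsad2 stood at 6.48, 14.3, 8.04 and 17.4 CPM in GFP and at 22.3, 32.4, 47.6 and 55.4 CPM in Cre, with an adjusted p of 0.0284. Its paired differences ran from 1.17 in isolate 2 to 2.56 in isolate 3, and its call was lost without isolate 1 or 4 (adjusted p = 0.210 and 0.225). Ifitm3 (0.34) and Bst2 (0.75), which act at membranes, and Lgals3bp (0.38) rose as well. Ifi27 went the other way, at 103, 86.6, 79.3 and 73.8 CPM in GFP and 98.1, 70.9, 56.6 and 50.4 CPM in Cre (-0.35, adjusted p = 0.0461). Its call was lost without isolate 2, 3 or 4 (adjusted p = 0.115, 0.202 and 0.0800) and with the correction for GC content and length described further on (adjusted p = 0.122). Ifitm2 (-0.10), Serpina3g (0.15) and Ms4a4d (0.08) were among the 10 effectors not called.

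Interferon-inducible GTPases, which attack the vacuoles of intracellular parasites and bacteria, gave 16 of 18 called higher, 0 lower and a median of 0.90. Gbp5 stood at 5.82, 5.49, 8.92 and 12.3 CPM in GFP and at 12.8, 15.2, 22.9 and 28.1 CPM in Cre (1.29, SE 0.07, edgeR adjusted p = 7.32e-06). The lowest Cre value exceeded the highest GFP value by little. Gbp4 (1.60), Tgtp1 (1.60), Tgtp2 (1.23), Igtp (1.11), Gbp3 (0.98), Gbp2 (0.93), Ifi47 (0.88) and Irgm2 (0.74) rose as well, and Gbp8 (0.71) and Gbp11 (0.85) did not pass the test at an adjusted p of 0.0587 and 0.0657. Tgtp1 and Tgtp2 are close copies and may share reads, and Tgtp1 stayed below 1 CPM in all libraries.

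MHC class I and immunoproteasome genes, which cut peptides and present them to T cells, gave 13 of 23 called higher and 0 lower, with a median of 0.36. The peptide transporter Tap1 stood at 59.5, 62.7, 75.2 and 82.8 CPM in GFP and at 87.6, 98.3, 136 and 156 CPM in Cre, with no overlap (0.75, SE 0.06, edgeR adjusted p = 7.97e-05). The inducible proteasome subunits Psmb8, Psmb9 and Psmb10 rose by 0.82, 0.80 and 0.61, and the class I chains H2-K1, H2-T22, H2-T23 and H2-Q4 by 0.31, 0.66, 0.48 and 0.97. Class I genes resemble each other closely, so their single values are uncertain. The common light chain B2m (0.08) and the chaperones Calr (0.04) and Pdia3 (-0.04) were not called.

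Chemokines, which attract leukocytes, gave 4 of 14 called higher and 0 lower. Cxcl10, a ligand of Cxcr3 on T cells, stood at 1.07, 2.90, 1.52 and 2.50 CPM in GFP and at 5.77, 8.03, 9.31 and 12.6 CPM in Cre (2.13, SE 0.17, edgeR adjusted p = 0.000171). Ccl5 stood at 1.16, 1.67, 1.01 and 1.62 CPM in GFP and at 2.85, 4.91, 3.42 and 3.91 CPM in Cre (1.47, SE 0.12, adjusted p = 7.97e-05). For both genes the Cre libraries lay wholly above the GFP libraries. The monocyte attractants Ccl2 and Ccl7 rose by 0.51 and 0.41. Cxcl12, a constitutive fibroblast chemokine, gave -0.09 (adjusted p = 0.343). Of 24 tested inflammatory genes under NF-kB control 0 were called, against 5 with an unadjusted p under 0.05 (18.7% of all genes reached that), although 23 lay above 0 with a median of 0.11. Leading members by p were C3 (0.19, adjusted p = 0.0567), Icam1 (0.16) and Csf1 (0.16).

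**Figure D2:**
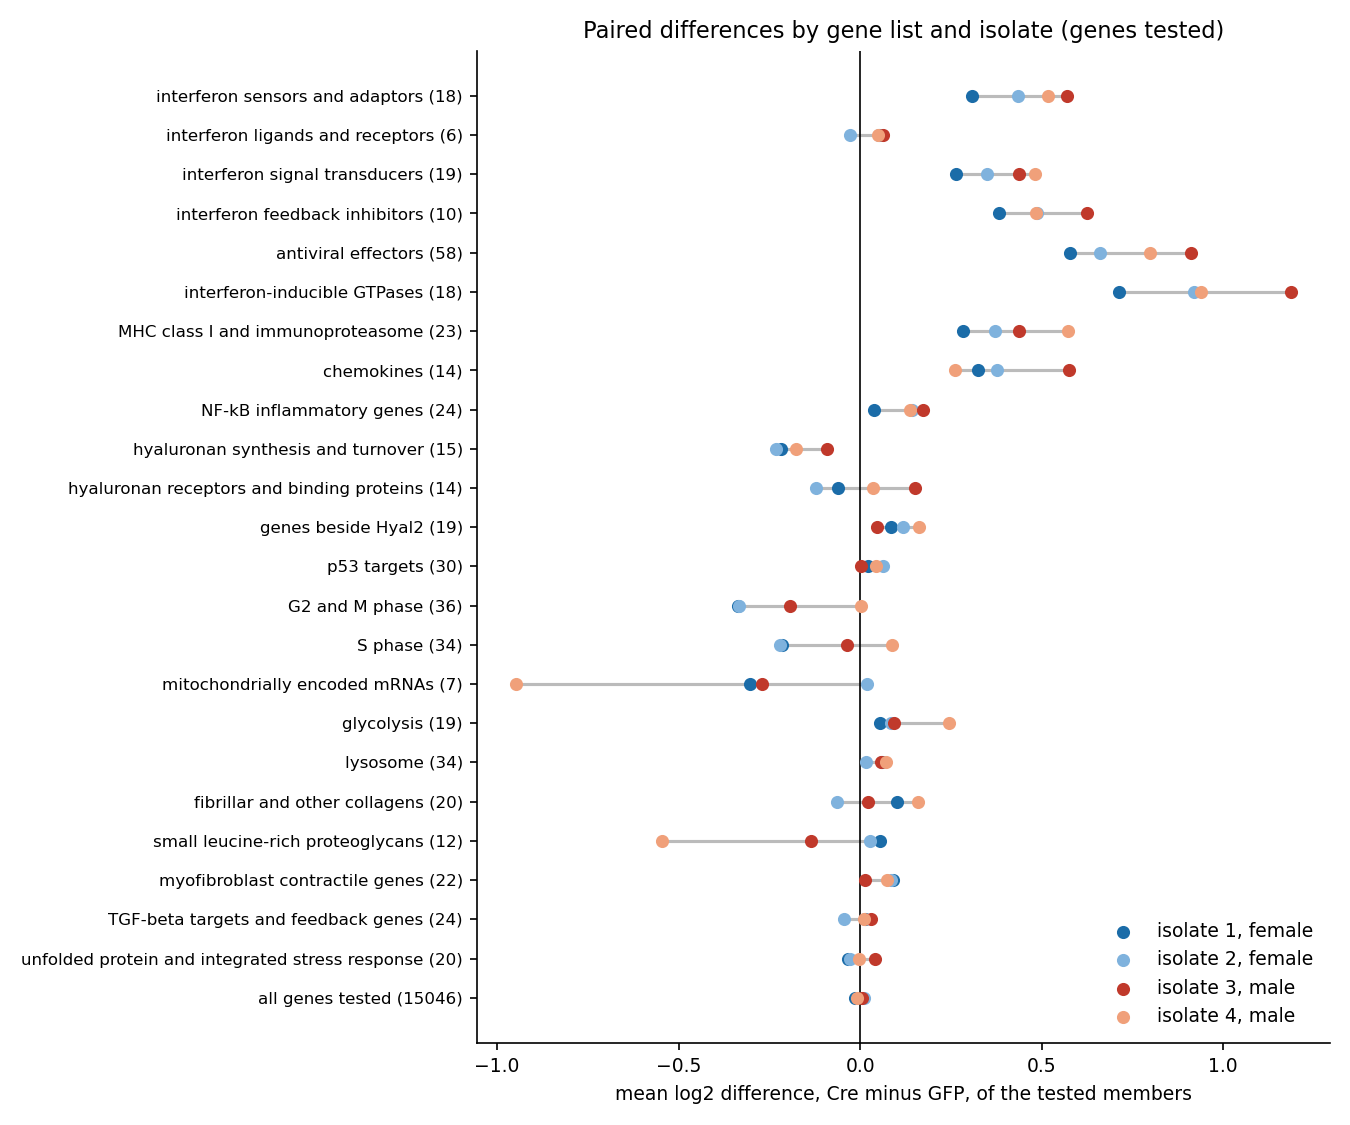
Mean log2 difference of Cre minus GFP over the tested members of each gene list, 1 point per isolate, with the number of genes tested in brackets and a grey line from the lowest to the highest isolate. The 6 interferon lists other than ligands and receptors lie above 0 in all 4 isolates, between 0.26 and 1.19, while isolate 4 lies apart for mitochondrially encoded mRNAs, at -0.95, and small leucine-rich proteoglycans, at -0.55.

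The remaining 107 genes called higher were in none of the interferon lists. Besides Cxcl10 and Ccl5, the largest named by rule was Ifi206 (1.87), a further member of the DNA-binding Ifi200 family. It stood at 0.685, 0.839, 1.31 and 1.28 CPM in GFP and at 1.82, 2.11, 5.39 and 7.34 CPM in Cre. Some others were picked after their values were seen, as examples of abundant genes: the surface proteins Ly6e (0.63) and Ly6a (0.60), the nuclear body proteins Pml (0.46) and Daxx (0.52), Sp110 (0.86) and the T-cell inhibitory ligand Cd274 (1.19). Of 30 p53 targets 2 were called higher, the stress cytokine Gdf15 and the cell cycle inhibitor Cdkn1a, while 1.38% of all genes tested were. Gdf15 stood at 9.47, 10.0, 9.96 and 9.05 CPM in GFP and at 13.8, 15, 13.9 and 11.7 CPM in Cre (0.50, SE 0.06, edgeR adjusted p = 0.00153). Cdkn1a was far more abundant and changed less, from 508 to 585 CPM in GFP to 591 to 659 CPM in Cre (0.19, adjusted p = 0.0407). Neither gene overlapped between the groups, as held for 2.04% of all genes in the higher direction, and the median of the p53 list was 0.02. Gdf15 kept its call whichever isolate was left out. Cdkn1a lost its call without isolate 1, 2 or 3 (edgeR adjusted p = 0.2434, 0.1144 and 0.1775).

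Promoters of the called genes were searched for the core of the interferon-stimulated response element, GAAANNGAA, on both strands, in the 250 bases before each RefSeq start site of the build GRCm38.p6. Entries were found for 153 of the 208 genes called higher, and 56 of them (36.6%) held the motif. It was in 830 of 10957 matched genes among all tested (7.58%) and in 4 of 59 genes called lower (6.78%). Of all windows in the table, 7.13% held it. The share was 44.2% for called higher genes of the interferon lists (34 of 77) and 28.9% for those outside them (22 of 76). The letters TTCNNNGAA, the core of the gamma-interferon activated site, were in 13.7% of the genes called higher and 7.16% of all tested. The 2 motifs overlapped in 40 windows of the whole table. A match in letters does not show that a factor was bound.

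The 6 promoter windows below are examples from genes whose values were given above or that lead their list. All 6 hold the motif, whereas 36.6% of the matched genes called higher did. They are therefore not typical of the genes called higher. Each runs 5′ to 3′ on the strand of its gene and ends at the base before the start site, with every match to GAAANNGAA or its reverse complement in capitals. Ifit3 is at chr19:34583279-34583528 (plus strand), Ifit1 at chr19:34640639-34640888 (plus strand), Gbp5 at chr3:142496684-142496933 (plus strand), Isg15 at chr4:156200819-156201068 (minus strand), Stat2 at chr10:128270248-128270497 (plus strand) and Cxcl10 at chr5:92348890-92349139 (minus strand).
Ifit3: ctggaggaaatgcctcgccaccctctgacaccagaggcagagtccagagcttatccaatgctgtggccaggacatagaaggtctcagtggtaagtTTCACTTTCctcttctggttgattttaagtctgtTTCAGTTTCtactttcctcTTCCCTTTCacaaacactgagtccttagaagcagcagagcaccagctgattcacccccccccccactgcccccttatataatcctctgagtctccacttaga
Ifit1: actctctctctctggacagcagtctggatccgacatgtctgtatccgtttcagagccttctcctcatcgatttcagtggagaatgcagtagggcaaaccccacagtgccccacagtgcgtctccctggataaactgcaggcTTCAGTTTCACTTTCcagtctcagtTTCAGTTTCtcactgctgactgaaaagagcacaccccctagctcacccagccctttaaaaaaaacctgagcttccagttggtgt
Gbp5: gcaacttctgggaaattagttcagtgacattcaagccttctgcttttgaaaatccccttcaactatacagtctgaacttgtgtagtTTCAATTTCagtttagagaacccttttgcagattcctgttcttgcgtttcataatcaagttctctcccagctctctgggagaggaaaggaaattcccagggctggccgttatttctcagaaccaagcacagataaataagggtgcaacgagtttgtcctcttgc
Isg15: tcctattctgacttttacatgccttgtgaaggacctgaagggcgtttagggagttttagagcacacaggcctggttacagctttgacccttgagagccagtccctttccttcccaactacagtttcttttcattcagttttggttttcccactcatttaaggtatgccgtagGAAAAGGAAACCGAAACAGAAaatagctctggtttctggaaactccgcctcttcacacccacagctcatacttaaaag
Stat2: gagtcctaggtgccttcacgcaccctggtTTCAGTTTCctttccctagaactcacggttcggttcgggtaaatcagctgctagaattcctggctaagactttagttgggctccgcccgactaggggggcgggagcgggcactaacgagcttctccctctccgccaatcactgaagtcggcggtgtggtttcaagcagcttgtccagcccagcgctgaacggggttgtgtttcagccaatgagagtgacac
Cxcl10: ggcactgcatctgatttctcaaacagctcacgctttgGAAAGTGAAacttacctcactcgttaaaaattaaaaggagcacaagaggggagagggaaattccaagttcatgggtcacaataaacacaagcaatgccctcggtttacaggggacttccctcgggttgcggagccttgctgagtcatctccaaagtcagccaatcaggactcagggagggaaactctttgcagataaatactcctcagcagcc
Ifit3 and Ifit1, neighbours on chromosome 19, each held 3 matches, which lie apart in Ifit3 and partly overlap in Ifit1. Those of Isg15 were 3 overlapping matches that form 1 run, whose last base lay 58 bases before the start site. Gbp5, Stat2 and Cxcl10 held 1 match each, ending 156, 213 and 205 bases before it. Ifit1 rose by 1.19, from 71.3, 113, 115 and 210 CPM in GFP to 166, 272, 304 and 380 CPM in Cre (edgeR adjusted p = 4.56e-05).

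Genes called lower were fewer and changed less, with a median log2 fold change of -0.33 against 0.65 for the genes called higher. After Hyal2 the largest named by rule were Map7d2 (-0.97), a microtubule-associated protein, the S phase cyclin Ccne2 (-0.85), Slc7a11 (-0.68) and the stress-response factor Atf3 (-0.63). Mmp13, also called lower, changed more than Map7d2 (-1.43, edgeR adjusted p = 0.0237). The call of Mmp13 was lost without isolate 1 or 3 (adjusted p = 0.153 and 0.0786). Slc7a11, the cystine importer that feeds glutathione synthesis, stood at 7.21, 8.61, 7.56 and 11.2 CPM in GFP and at 4.50, 5.26, 4.93 and 6.92 CPM in Cre. Its 4 paired differences were between -0.71 and -0.61, and the groups did not overlap (SE 0.07, edgeR adjusted p = 0.000406). Atf3 stood at 4.63, 5.26, 3.37 and 3.90 CPM in GFP and at 2.91, 3.35, 2.59 and 2.28 CPM in Cre (SE 0.10, adjusted p = 0.00849). Further down were the kinetochore scaffold Knl1 (-0.60), the glutathione transferase Gsta3 (-0.55), Gas2l3 (-0.51), the midbody protein Cep55 (-0.48), Bub1 (-0.47) and the spindle pole gene Aspm (-0.46). All of these from Knl1 on lost their call without isolate 1, 2 or 3 (edgeR adjusted p from 0.0745 to 0.229) and kept it without isolate 4. Map7d2 and Atf3 lost theirs without isolate 1 (adjusted p = 0.102 and 0.0751) or isolate 2 (0.0837 and 0.0542). Slc7a11 and Ccne2 kept theirs whichever isolate was left out.

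Of 36 genes of the G2 and M phases, 5 were called lower and 0 higher, while 0.505% of all genes tested were called lower. All 36 had a fitted log2 fold change below 0, with a median of -0.22, while 7486 of all 15046 genes lay below 0. In 4 of 4 pairs 13 of the 36 lay below 0 (13.7% of all genes did). The called genes were the proliferation marker Mki67 (-0.39), the kinetochore and checkpoint genes Nuf2 (-0.42) and Bub1 (-0.47), the cytokinesis factor Ect2 (-0.43) and Hmmr (-0.40). Mki67 stood at 34.8, 53.8, 34.2 and 25 CPM in GFP and at 25.1, 34.9, 26.4 and 23.9 CPM in Cre. The groups overlapped, and isolate 4 differed least, by -0.06. Without isolate 1, 2 or 3 the calls of Mki67, Nuf2, Bub1 and Ect2 were lost (adjusted p from 0.0577 to 0.171), and they kept theirs without isolate 4. Hmmr lost its call without isolate 1 or 3 (edgeR adjusted p = 0.0687 and 0.0786). It just kept the call without isolate 2 (adjusted p = 0.0494) and also kept it without isolate 4. Over the list the mean paired difference was -0.34, -0.33, -0.19 and 0.00 in isolates 1 to 4. In cultures such as these, fewer cycling cells and less RNA per cell cannot be told apart. Of 34 S phase genes 1 was called lower, Ccne2, and 0 higher, with a median of -0.08.

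Among matrix genes and other cell programmes few genes were called. Of 20 collagen genes, 22 contractile genes, 12 small leucine-rich proteoglycans, 34 lysosomal genes and 19 glycolytic genes 0 were called in either direction, with 2, 3, 6, 13 and 12 at an unadjusted p under 0.05, which 18.7% of all genes reached. Of the 19 glycolytic genes 18 lay above 0, 13 of them in 4 of 4 pairs, with a median log2 fold change of 0.14, or 0.07 with 1 gene called higher after the correction for GC content and length. Col1a1, the main collagen chain of the heart, gave 0.14 (edgeR adjusted p = 0.129), and the smooth muscle marker Cnn1 0.26 (adjusted p = 0.177). Of 24 TGF-beta targets and feedback genes 1 was called higher and 1 lower. The latter was Tgfbr1, a receptor chain, at -0.29 (adjusted p = 0.0348). Its call was lost without isolate 1 or 2 (edgeR adjusted p = 0.1597 and 0.1135). Of 20 stress-response genes 1 was called, Atf3. Of the 19 tested chromosomal neighbours of Hyal2 0 were called, 9 had an unadjusted p under 0.05, and 16 lay above 0 with a median of 0.13. Naa80, which overlaps the Hyal3 locus, led them at 0.22 (adjusted p = 0.0565). After the correction for GC content and length the median of these neighbours was 0.05, with 15 above 0 and 1 called higher.

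Fold changes moved with the base composition of the transcripts. Over 15020 genes with a value, Spearman's rho between GC content and the log2 fold change was 0.54, and it was 0.39, 0.23, 0.24 and 0.53 for the paired differences of isolates 1 to 4. These genes share the same 8 libraries and are not independent. Genes called lower had a median GC content of 41.5% and a median transcript length of 4874 bases, against 49.7% and 3202 bases for all genes tested and 50.5% and 2996 bases for genes called higher. A fit with GC content and length removed from each library, chosen after seeing the data, left a rho of 0.03 and called 309 genes (2.05%), 252 higher (1.67%) and 57 lower (0.379%). All 284 genes kept their sign in it. Of the 208 called higher, 191 stayed called, and of the 76 called lower, 28 did.

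The interferon lists had 104 of 152 genes called higher after this correction, with a median of 0.59. Hyal2 stood at -2.10 (edgeR adjusted p = 0.00523), Slc7a11 at -0.53 (adjusted p = 0.00058) and Mki67 at -0.35 (adjusted p = 0.0056). Of the 5 G2 and M genes, Nuf2, Bub1 and Ect2 were no longer called (adjusted p = 0.0544, 0.0585 and 0.153), while 4 genes of the list were called lower in all. Rsad2 and Cmpk2 lost their call (adjusted p = 0.132 and 0.0966) at nearly the same log2 fold change, 1.81 and 1.68. Cdkn1a and Tgfbr1 lost theirs too (adjusted p = 0.0694 and 0.0979). The part of GC content in the counts of genes called lower was not tested further.

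**Figure D3:**
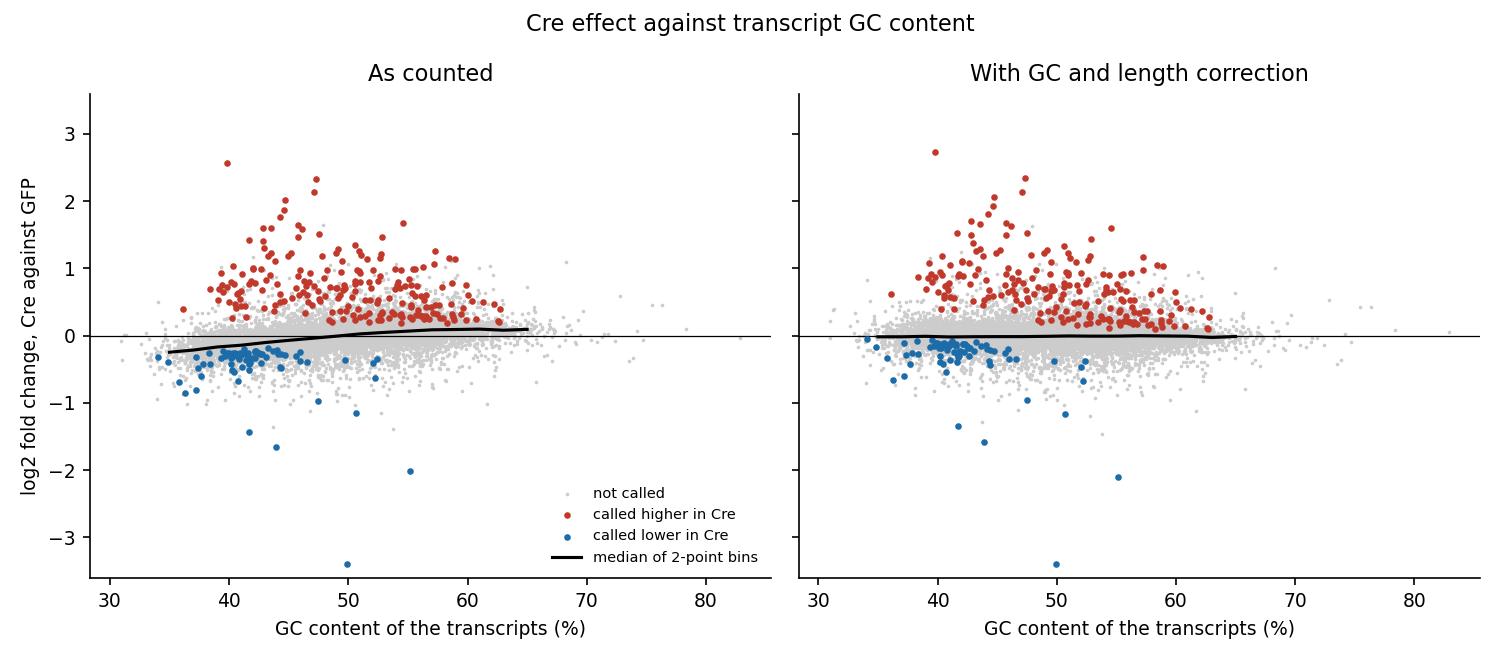
Log2 fold change of Cre against GFP for each gene against the GC content of its transcripts in percent, as counted on the left and with the GC and length correction on the right, with genes coloured by their call as counted. On the left the median of 2-point bins (black line) rises with GC content and most genes called lower lie near 41.5%; on the right the line stays near 0 and the genes called higher keep their height.

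The paired differences were wider in isolate 4, whose GFP library stood apart for some genes. The SD over genes of the paired difference was 0.295, 0.281, 0.320 and 0.413 in isolates 1 to 4. Isolate 4 stood apart in 7 mitochondrially encoded mRNAs, with a mean difference of -0.95 against -0.30, 0.02 and -0.27 in isolates 1 to 3, and in small leucine-rich proteoglycans, at -0.55 against 0.05, 0.03 and -0.14. None of these genes was called, and mt-Nd5 was called lower after the GC and length correction (adjusted p = 0.0121). The summed level of the 7 mitochondrial mRNAs was 11620 CPM in the GFP library of isolate 4, against 5907 to 7024 CPM in the other GFP libraries and 5266 to 6063 CPM in the Cre libraries. mt-Nd1, a subunit of respiratory complex I, stood at 641.4, 615.3, 621.9 and 1346 CPM in GFP and at 573.3, 673.3, 612.9 and 584.7 CPM in Cre. Ogn, a small proteoglycan, stood at 94.1, 52.4, 175.0 and 290.3 CPM in GFP and at 83.0, 54.0, 145.9 and 122.7 CPM in Cre. For both genes the GFP library of isolate 4 was the highest of the 8, while its Cre partner lay within the range of the other Cre libraries. The test of a sex difference in the Cre effect called 1 of 15046 genes (0.00665%), ENSMUSG00002075795, which has no symbol here. It stood at 12.6, 7.20, 3.34 and 4.04 CPM in GFP and at 10.1, 6.43, 10.9 and 16.3 CPM in Cre, lower in Cre in the female and higher in the male isolates. Leaving out isolate 3 moved this count to 1677. Of the 284 genes called between Cre and GFP 0 were called for a sex difference.

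Some low markers of mesothelium, the outer lining of the heart, were higher with Cre without being called. Upk1b had 0.114, 0.454, 0.0922 and 0.00 CPM in GFP and 0.503, 1.04, 0.222 and 0.256 CPM in Cre, higher in 4 of 4 pairs (1.64, edgeR adjusted p = 0.0604). With the GC and length correction Upk1b was called higher (1.63, adjusted p = 0.0352). Upk3b gave 1.07 (adjusted p = 0.0895). The median over 6 tested members of 12 was 0.63, and Muc16 had 0 counts and Krt8 1 count in all 8 libraries. The summed level of the list was 603.5 to 679.5 CPM in GFP and 597.3 to 700.2 CPM in Cre, nearly all of it from Aldh1a2, an enzyme of retinoic acid synthesis, at 599.6 to 677.8 CPM in GFP and 592.0 to 696.9 CPM in Cre (0.06, adjusted p = 0.464). The sum therefore says little of the other 5 markers, which were below 2 CPM in all 8 libraries. The part of these cells in the changes above was not tested.

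Cre and GFP were also compared with TGFB, in 4 other libraries of each virus from the same isolates, in a joint fit of these 8 and the 8 libraries without TGFB. For the effect without TGFB the joint fit called 220 genes higher (1.42%) and 39 lower (0.252%), with 190 of the 208 and 27 of the 76 among them. With TGFB, Hyal2 was lower in Cre by a similar amount as without it, with a log2 fold change of -2.31 (edgeR adjusted p = 1.74e-05). The difference between both effects was -0.29 (adjusted p = 0.488). Of the 208 genes called higher without TGFB, 0 were called higher with it (0.0323% of all genes were), 139 lay above 0 and the median was 0.05 against 0.65. Some of the 208 stood lower with TGFB in GFP itself, in CPM scaled over all 20 libraries. Irf7 was at 101.2 to 169.7 CPM in GFP and 31.9 to 50.3 in GFP with TGFB. Psmb8 was at 26.4 to 36.2 and 3.81 to 4.85 CPM. Cdkn1a went the other way, at 497.8 to 567.8 and 739.0 to 893.7 CPM. The part of these levels in the smaller Cre effect was not tested. Of the 76 called lower, 5 were called lower with TGFB (0.181%), namely Hyal2, Atf3, Gsta3, Mki67 and Mmp13, and 39 lay below 0. Hyal1 was called higher with TGFB (0.47, adjusted p = 0.0103), and the difference from its effect without TGFB was 0.29 (adjusted p = 0.302). A fit of the 8 libraries with TGFB alone, added after seeing the data, called 0 of 14503 genes higher (0%) and 5 lower (0.0345%), of which Hyal2, Atf3, Gsta3 and Mmp13 were among the 76. In it 195 of the 208 were tested, 128 lay above 0 and their median was 0.05, and Hyal1 (0.47, adjusted p = 0.102) and Mki67 (-0.53, adjusted p = 0.164) were not called.

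Whether the Cre effect differed between cultures with and without TGFB was tested as an interaction in 16 libraries. It called 78 of 15461 genes, 4 higher (0.0259%) and 74 lower (0.479%) with TGFB, and 47 of the 74 were in the interferon lists. Of the 208 genes called higher without TGFB 69 were among the 74. These 208 were chosen by their effect in libraries that the interaction also uses, which favours a difference in this direction. Examples were Ifi47 (0.88 without and 0.00 with TGFB, edgeR adjusted p = 0.000583), Tgtp2 (1.23 and 0.11, adjusted p = 0.00393) and Tap1 (0.75 and 0.06, adjusted p = 0.00984). For Isg15 (1.21 and -0.10, adjusted p = 0.213), Mx1 (2.33 and 1.82, adjusted p = 0.778) and Gbp5 (1.29 and 0.67, adjusted p = 0.299) the difference did not pass. With TGFB Mx1 was close to the limit of counting, at 0.0558 to 0.385 CPM in GFP and 0.335 to 1.25 CPM in Cre. Atf3 gave -0.63 and -0.67, and the G2 and M list had medians of -0.22 and -0.45. The number of interaction calls depended on single isolates. It was 0 without isolate 4, 13 without isolate 3, 46 without isolate 1 and 1143 without isolate 2.

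**Figure D4:**
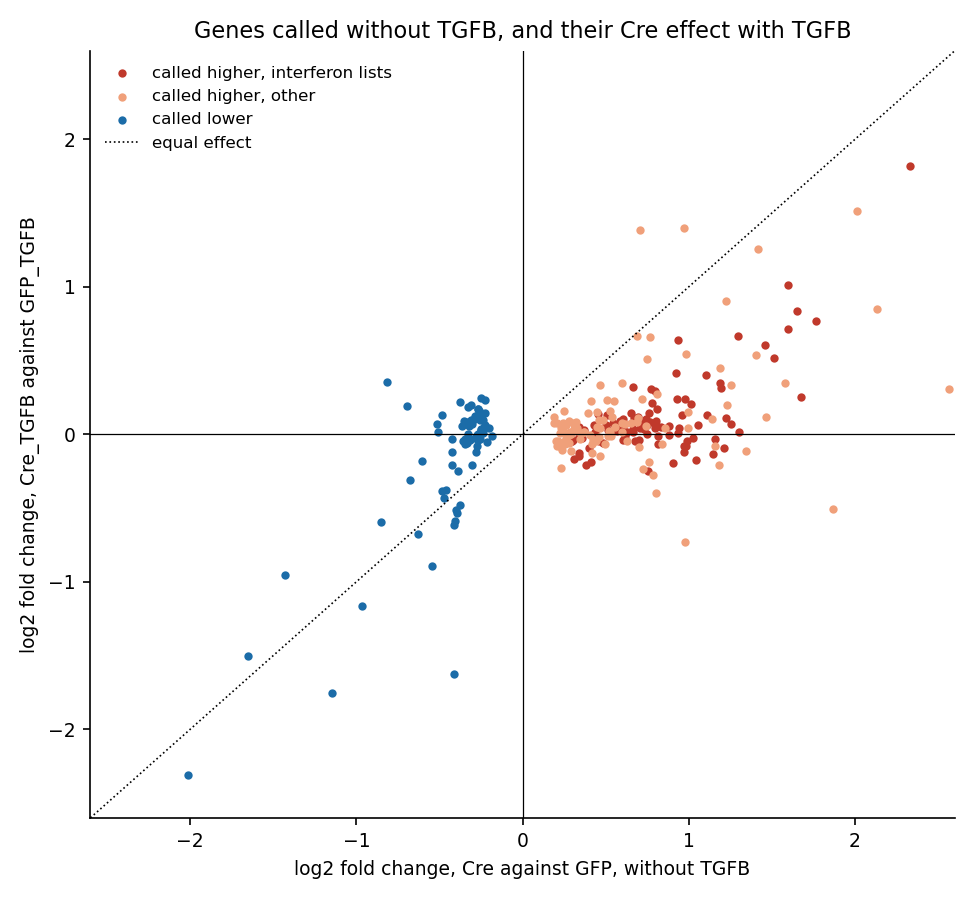
Log2 fold change of Cre against GFP without TGFB (horizontal axis) and of Cre_TGFB against GFP_TGFB (vertical axis) for the 284 genes called without TGFB, with a dotted line of equal effect. Most genes called higher lie near 0 on the vertical axis, with a median of 0.05, and Hyal2 lies at the lower left at -2.02 and -2.31.

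The Hyal2 virus, which raises Hyal2, was compared with the same 4 GFP libraries, so its values are set beside those of Cre without a test between them. That comparison called 0 of 14878 genes (0%) with the block. Hyal2 itself was thus not called, although it stood at 36.4 to 44.3 CPM in GFP and at 397.2 to 1413 CPM with the Hyal2 virus (scaled over all 20 libraries). The 0 calls therefore do not show that other genes were unchanged. The 151 interferon genes tested in it had a median of -0.17, with 20 above 0, against 0.59 for Cre. Values for the Hyal2 virus and for Cre were -0.32 and 1.21 for Isg15, -0.66 and 0.98 for Irf7, and 0.18 and 2.33 for Mx1. Atf3 and Slc7a11 were below 0 in both, at -0.68 and -0.63 and at -0.48 and -0.68.

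The count of calls also varied with the test. DESeq2 with the same block called 253 genes higher and 206 lower, limma-voom 201 and 65, and a fit of all 20 libraries with the block 37 and 5.

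**Figure D5:**
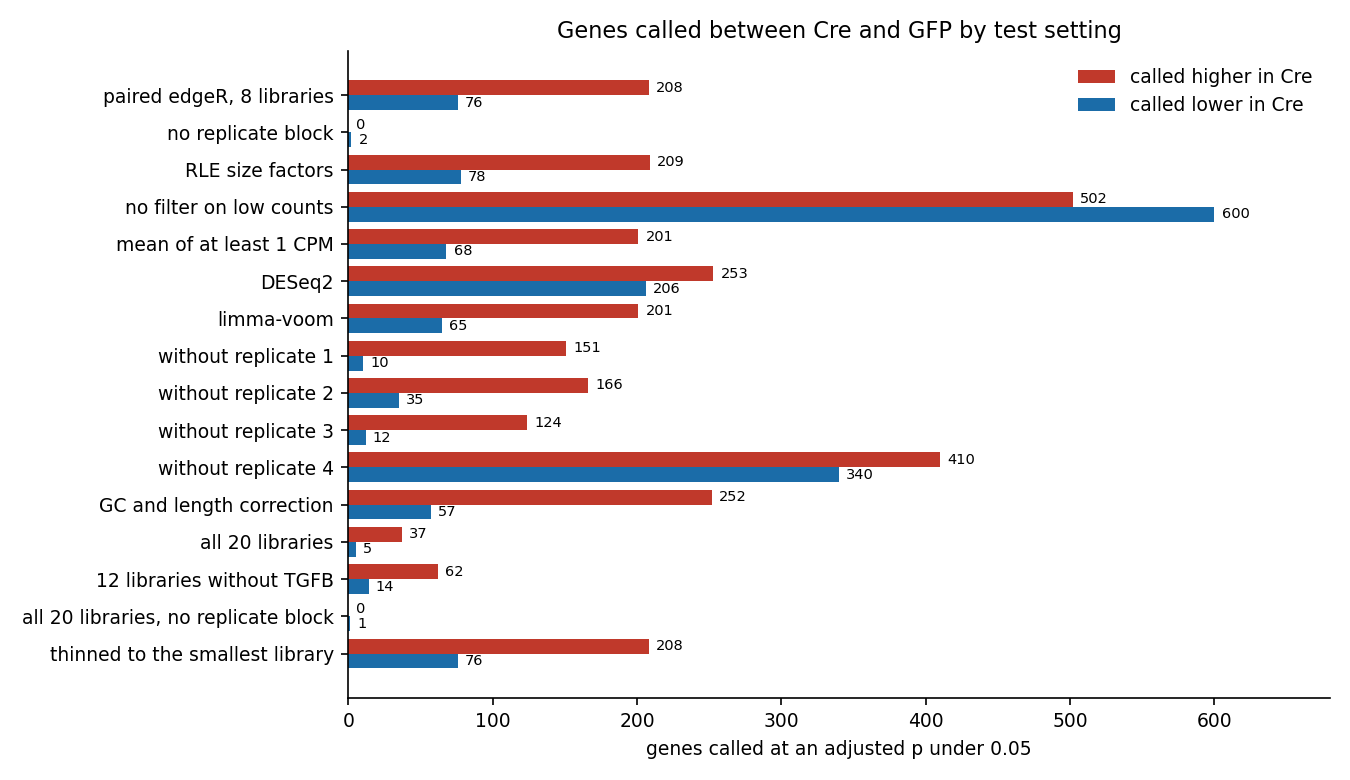
Number of genes called higher (red) and lower (blue) in Cre at an adjusted p under 0.05 for the paired edgeR test and each alternative. The number called higher stayed between 124 and 253 under 9 of the alternatives, was 502 without a filter on low counts and 410 without isolate 4, was 37 and 62 in the fits of 20 and 12 libraries, and was 0 in both fits without the block.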

How the data were processed

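Libraries were prepared with a NEBNext Ultra II kit from DNase-treated total RNA, per the labels' protocols. The authors deposited raw, unscaled counts for each Ensembl gene. The submitters' processing notes name FastQC 0.10.1, HTSeq 0.10.0 and the build GRCm39 (mm39). For the aligner, annotation release and strand setting the answer is not given in the sources used here, so reads of overlapping or antisense genes cannot be told apart. All 20 count columns matched a labelled sample and 0 were left unmapped. Of 55414 identifiers, 52081 were given a symbol by Ensembl identifier from a GRCm38 annotation, used for names, GC content and transcript length.

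For the 8 libraries the test was that of edgeR 4.0.16 under R 4.3.3 (robust quasi-likelihood test, TMM factors, filterByExpr with a minimum count of 10, isolate as a block) with calls at an adjusted p under 0.05 (Benjamini-Hochberg over the 15046 tested genes). The standard error is the size of the log2 fold change over the root of F. In the pairing check, deviations from the group means correlated at 0.547, 0.736, 0.638 and 0.528 between same-numbered libraries, each highest with its own number; the pairing itself comes from the isolate codes in the labels. No 2 replicates agreed within sampling noise (chi-square per degree of freedom at least 21.5 in 12 pairs). The interaction and the Cre effect with TGFB used 16 libraries with a block per isolate and TGFB state, and the sex difference the same 8 libraries. DESeq2 1.42.0, limma-voom (limma 3.58.1), other filters, scalings, sets of libraries and thinning were alternatives, and the GC and length correction and a fit of the 8 libraries with TGFB alone were chosen after seeing the data. The tests were also run on simulated data, where the share of false calls exceeded the nominal level. The promoter motif was shortened after a longer form had been searched; with both forms the share among genes called higher was above that of all tested genes, while the order of genes called lower and all tested genes differed between the forms. The libraries, 31 gene lists and alternatives were chosen with earlier results of these data known. Genes were named by rule: Hyal2, at most 12 called genes with the largest change in each direction that reached a mean of 2 CPM in either group and 1 sign in 4 of 4 pairs, at most 5 leading members of each list, tested hyaluronan genes and called list members. Some genes that this rule names are not reported here.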

Additional observations from a re-analysis of the deposited data

Results flagged for a closer look

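The Cre effect was lower with TGFB than without it, by the interaction test, for 27 of the named genes (edgeR adjusted p = 0.000583 to 0.0494). Over all genes tested 0.479% were called lower in this test. All 27 had been called higher without TGFB, in libraries that the test also uses. That choice of genes favours a smaller effect with TGFB. Without isolate 4 the test called 0 genes. Log2 differences among sensors were -1.04 for Dhx58, -1.09 for Ifi207, -0.63 for Ifi204, -0.57 for Samhd1, -0.56 for Ifih1, -0.52 for Adar and -0.44 for Ddx58. Transducers and modifiers gave -1.19 for Nlrc5, -0.75 for Ifi35, -0.64 for Stat2, -0.67 for Herc6 and -0.55 for Ube2l6. GTPases gave -1.11 for Tgtp2, -0.98 for Igtp, -0.88 for Ifi47, -0.74 for Gbp3, -0.68 for Gbp2 and -0.64 for Irgm2. Genes of antigen presentation gave -1.09 for H2-Q4, -0.88 for Psmb8, -0.68 for Tap1, -0.63 for H2-T22 and -0.54 for H2-T23. The remaining values were -1.35 for Ccl5, -0.81 for Sp110, -0.67 for Ly6e and -0.51 for Daxx.

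ENSMUSG00002075795 differed between the sexes in its Cre effect, by 2.12 in male minus female isolates (edgeR adjusted p = 1.92e-05).

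Among 262 groups of 4 libraries tested for a single library far from the other 3, 9 had one. This is a smaller share than the about 1 in 20 that chance gives, so the values below are a description only. Isolate 2 stood above the other isolates for mitotic genes: Bub1 at 8.93 CPM in GFP (others 4.33 to 4.75) and 6.29 in Cre (others 3.10 to 3.40), Hmmr at 13.5 in Cre (others 7.85 to 8.74) and Nuf2 at 9.05 in Cre (others 5.72 to 5.79). Ugp2 stood at 99.3 CPM in the Cre library of isolate 2 (others 90.6 to 90.8) and at 130.1 in the GFP library of isolate 4 (others 95.0 to 100.5). Gbp8 stood at 1.88 CPM in the GFP library of isolate 4, against 0.839 to 0.981 in the others. mt-Nd1 stood at 1346 CPM in the GFP library of isolate 4, against 615.3 to 641.4 in the others. Aldh1a2 stood at 677.8 CPM in the GFP library of isolate 1, against 599.6 to 608.9 in the others.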

How the results depend on the processing

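The 284 genes called between Cre and GFP became 2 without the replicate block, 1102 without a filter on low counts, 459 with DESeq2, 42 with all 20 libraries in the fit, 76 with the 12 libraries without TGFB and 1 with all 20 libraries and no replicate block, and 136 to 750 when 1 isolate was left out. The 78 interaction calls became 0 without the replicate block, 455 without the filter, 139 with DESeq2, and 0 to 1143 with 1 isolate left out. The 1 call of the sex difference became 0 without the replicate block, 70 without the filter, 3 with the GC and length correction, and 22 to 1677 with 1 isolate left out, where 1 sex is a single pair assumed to vary like the others. Interferon genes called higher numbered 101, 0 without the replicate block, 19 with all 20 libraries, 27 with 12 libraries, 0 with 20 libraries and no replicate block, and 84 to 102 with 1 isolate left out. The cause of these moves was not tested. Hyal2 kept its direction under the 15 alternatives, with log2 fold changes from -2.15 to -1.89 when 1 isolate was left out. It missed the threshold without isolate 4 (-1.95, adjusted p = 0.0506) and with 12 libraries (-2.01, adjusted p = 0.138). No gene named with a call changed sign under any of these alternatives. Genes under about 1 CPM, such as Ifnb1, Tgtp1, Upk1b and Upk3b, are limited by counting error.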
